A study of Homo sapiens with 2 samples.

Results

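The interferon response was examined through 47 genes in the A549 line, 8 of them encoding the receptor, its kinases and transcription factors and 39 encoding induced effectors. They were taken from a list of symbols and found by Entrez ID in the deposited tables, where all 47 were among the 16399 genes listed. The study asked which genes respond to plakophilin 2 (PKP2), which links desmosomal cadherins to keratin filaments. A549 is an established human lung adenocarcinoma line. One group was A549 cells overexpressing PKP2 delivered with an SFB tag, and the other was A549 cells given the vector. Both were grown in DMEM with fetal bovine serum and sampled at passage 5, and no interferon, virus or other stimulus is named for either. Whether each culture was a pool or 1 clone is not given in the sources used here. Each group held 1 library, so no difference below has a replicate check or a p-value. What is compared is 1 library with another, not PKP2 overexpression with its absence.

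Type I interferons bind a receptor made of IFNAR1 and IFNAR2, which carry the kinases TYK2 and JAK1. The kinases phosphorylate STAT proteins, and STAT2 joins IRF9 and a partner STAT in a complex that binds the interferon-stimulated response element in the promoters of its targets. Those targets encode proteins that bind or cut viral RNA, modify proteins with the ubiquitin-like ISG15, trap virions or block their entry, and the pathway also holds its own brakes, such as USP18. Lung epithelial cells use this response against respiratory viruses, and many of its genes keep a basal level without a stimulus.

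PKP2 itself was measured at 268.0 CPM (the estimated count divided by the library total, times 1000000) in the PKP2 library, against 27.3 CPM in the vector library, which follows the labels. The PKP2 library summed to 16808842 estimated counts and the vector library to 16996976. All 5 epithelial markers were listed, with a summed level of 11568 CPM in the PKP2 library and 11323 CPM in the vector library, nearly all of it from keratins, while EPCAM lay at 1.37 CPM in the PKP2 library and 1.47 CPM in the vector library. None of the markers of T cells, B cells and plasmacytoid dendritic cells was listed in the tables. Of 4 myeloid markers CD14 and CSF1R were listed, with a summed level of 3.39 against 3.41 CPM, and AIF1 and TYROBP were not. Of 5 fibroblast markers COL1A1, COL3A1 and LUM were listed, with a summed level of 11.5 against 9.06 CPM, and of 3 endothelial markers CDH5 and VWF, with 0.773 against 0.177 CPM. The part of other cells in the results was not tested, and in a bulk library fewer cells of a type and less RNA per cell cannot be told apart.

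Most effectors were at a low level in both libraries. A gene was called expressed where either library reached 1 CPM, which 40 of the 47 members reached, all 8 signalling genes and 32 of the 39 effectors. The expressed members had a median mean level of 16.4 CPM, against 29.7 CPM over all 12820 expressed genes. The 7 others were the effectors OAS2, IFITM1, BST2, MX2, RSAD2, IFI27 and IFI44L. OAS2 had 5 counts in the PKP2 library and 7 in the vector library, and BST2, which encodes the virion-trapping protein tetherin, had 3 and 2. IFI27 had 3 counts in the PKP2 library and 1 in the vector library, IFI44L had 2 and 3, and IFITM1 and MX2 had 1 in each. RSAD2, the gene of the radical SAM enzyme viperin, was at 0 in the PKP2 library and at 1 count in the vector library. No difference could be read for these 7 at this depth, where 3 counts correspond to 0.178 CPM in the PKP2 library and 0.177 CPM in the vector library.

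Promoters of the effectors, though not those of the signalling genes, often held the core of the interferon-stimulated response element. The motif searched was the 4 letters GAAA, any 2 bases, and the same 4 letters again, on both strands, in windows of 250 bases before to 50 bases after the start of each gene in RefSeq (GRCh38.p14). Matches could overlap each other. A window was found for 39 members, 33 effectors and 6 signalling genes. Of the 33 effector windows, 23 held a match (69.7%), and of the 6 signalling windows none did, against 3.65% of 27305 windows in the table and 2.70% of 10441 windows of expressed genes. IFNAR2, IRF7, USP18, OAS2, OASL, IFIT2, IFITM2 and MX2 had no window in the table. A match is a description of letters and not a binding site. The starts are RefSeq's, and in GENCODE release 29, the source of the gene positions given further on, all of the genes printed here except IFI44 begin upstream of them. The stretches below show the motif before the start in 4 of the members with the largest differences between the libraries, in OAS3, the most abundant member with a match wholly before the start, and in BST2 and IFI44L, both below 1 CPM. Capitals mark the matched bases, and each is read 5′ to 3′ on the gene's own strand.
ISG15, chr1:1013364-1013419, plus strand: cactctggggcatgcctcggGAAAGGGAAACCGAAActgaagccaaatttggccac
IFI44, chr1:78649751-78649788, plus strand: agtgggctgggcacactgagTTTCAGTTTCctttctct
IFITM3, chr11:320866-320932, minus strand: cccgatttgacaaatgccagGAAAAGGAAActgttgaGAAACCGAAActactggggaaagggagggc
ISG20, chr15:88638927-88638976, plus strand: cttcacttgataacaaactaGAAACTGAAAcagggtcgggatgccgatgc
OAS3, chr12:112938311-112938360, plus strand: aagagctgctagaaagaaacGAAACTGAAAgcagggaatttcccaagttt
BST2, chr19:17405725-17405780, minus strand: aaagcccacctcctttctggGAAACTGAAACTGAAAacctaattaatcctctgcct
IFI44L, chr1:78620264-78620313, plus strand: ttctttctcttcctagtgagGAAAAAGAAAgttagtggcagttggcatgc
ISG15 and BST2 carried a pair of overlapping matches each, and IFITM3 carried a pair 7 bases apart. OAS3 and IFI44L each held a second match before the start that is not printed, at -12 and -73 from the start, where the printed ones begin at -143 and -164. ISG20 and IFI44 held 1 match each, and the IFI44 match is read on the other strand. Members with the motif thus lay at both ends of the range of levels, as OAS3 and BST2 do.

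No expressed member differed by 1.5-fold or more on the scale of log2(CPM + 1), which is used for all counts of differences below and understates those of genes near 1 CPM. The count was 0 of 40 in each direction, where 0.733% of all expressed genes were at least 1.5-fold higher in the PKP2 library and 0.788% at least 1.5-fold lower. At a difference of 0.32 or more on that log2 scale, 7 of the 40 members were higher in the PKP2 library, where the share over all expressed genes was 5.16%, and 1 was lower, where it was 6.98%. By sign alone 22 members were higher and 18 lower, against 49.7% and 50.3% of all expressed genes. The median difference, PKP2 minus vector, was 0.07 for the members and 0.00 for all expressed genes. An exact 95% Clopper-Pearson interval of each ratio of CPM, covering counting error only, lay above 1 for 8 members and below 1 for 6, where the shares over all expressed genes were 16.3% and 19.8%. The other 26 intervals held 1. The counts summed over all 47 members gave 1506 CPM in the PKP2 library and 1590 CPM in the vector library, a ratio of 0.947 (0.931 to 0.963). The sum and the median thus lay on opposite sides of no difference, and the most abundant members, such as ADAR and JAK1, were among the lower ones.

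**Figure D1:**
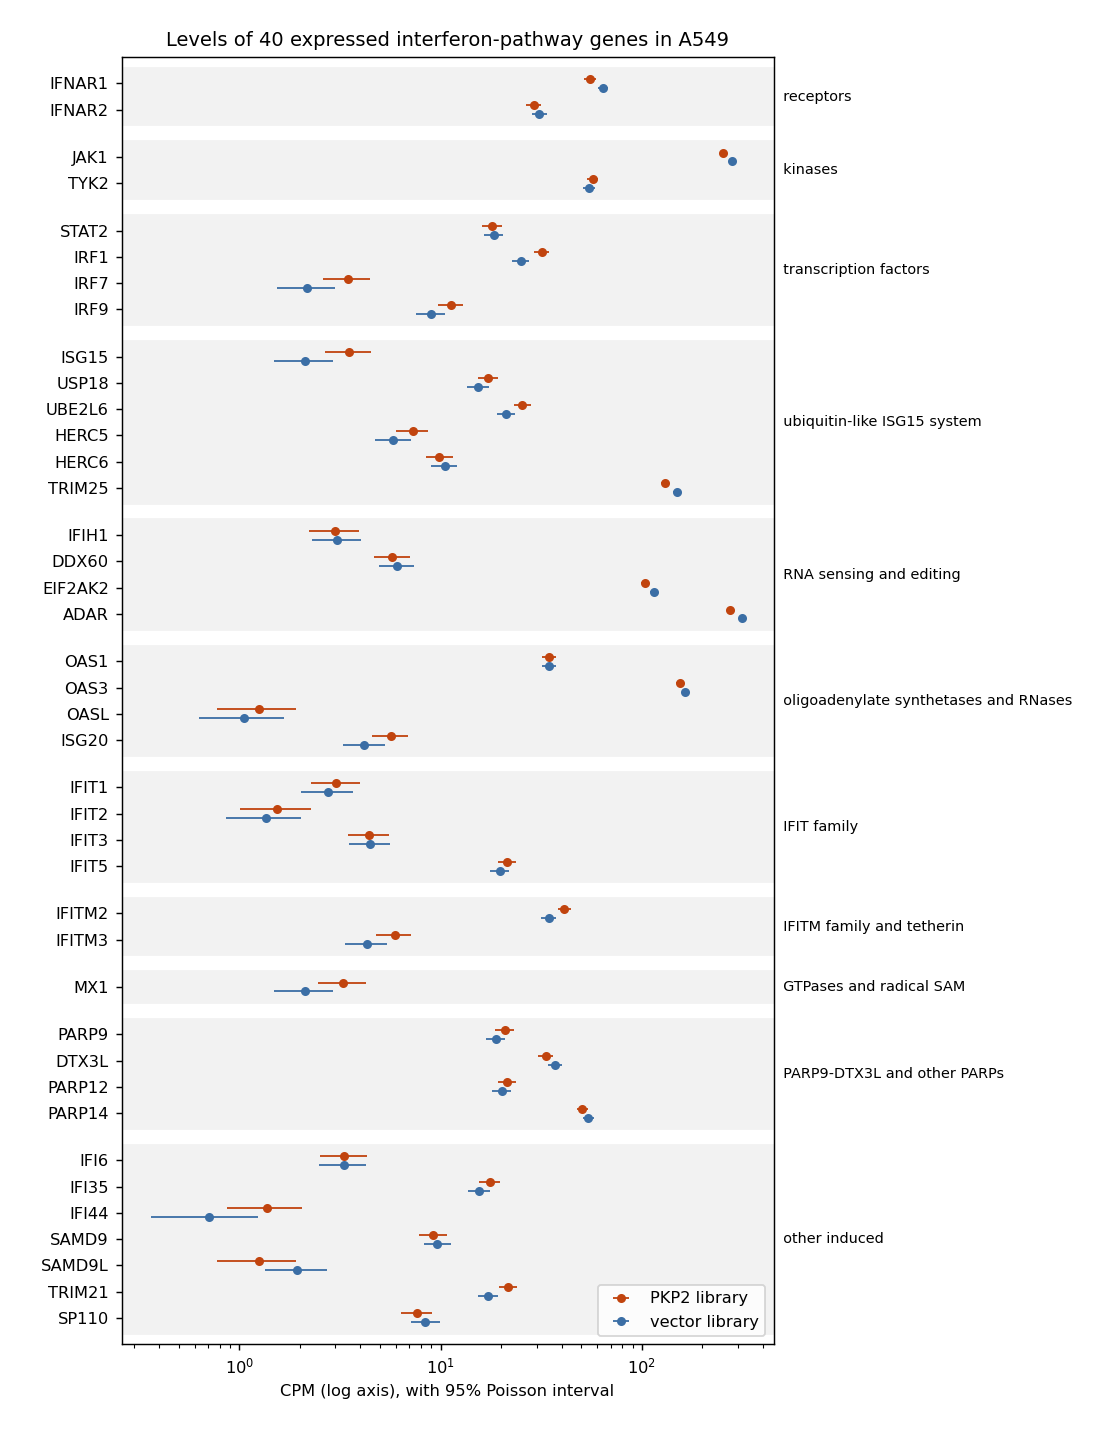
Level of each of the 40 expressed members in CPM (log axis) in the PKP2 library (orange) and the vector library (blue), grouped by role; bars are 95% Poisson intervals and cover counting error only. The levels span from about 1 CPM (IFI44, OASL, SAMD9L) to 273.9 and 313.0 CPM for ADAR, and the points of a gene lie close together.

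Both receptor chains had lower values in the PKP2 library, where 50.3% of all expressed genes did. With a trend on transcript length and GC content removed, as described further on, both were still lower. Their median difference was then -0.08 instead of -0.15. IFNAR1 (chromosome 21, 33324477 to 33359862, GRCh38), which encodes the chain that binds TYK2, had 930 counts or 55.3 CPM in the PKP2 library and 1091 counts or 64.2 CPM in the vector library, a ratio of 0.862 with an interval of 0.789 to 0.942. IFNAR2 (chromosome 21, 33229901 to 33265675), the chain that binds JAK1, had 487 counts in the PKP2 library and 527 counts in the vector library, a ratio of 0.934 (0.824 to 1.06), which holds 1. A protein-coding gene annotated on the same strand covers the whole of IFNAR2, so its count is uncertain. Per kilobase of the longest annotated transcript IFNAR1 had 9.01 CPM in the PKP2 library and 10.5 in the vector library, and IFNAR2 had 6.76 and 7.24.

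Of the kinases JAK1 was far more abundant than TYK2 and was the lower one in the PKP2 library. JAK1 (chromosome 1, 64833229 to 64966504) had 254.7 CPM in the PKP2 library and 282.0 CPM in the vector library, a ratio of 0.903 (0.867 to 0.941). TYK2 (chromosome 19, 10350529 to 10380676) had 56.9 CPM in the PKP2 library and 54.7 CPM in the vector library, a ratio of 1.04 (0.951 to 1.14), which holds 1, and its vector count was fractional. Per kilobase JAK1 was the most abundant of all members, at 50.5 CPM in the PKP2 library and 55.9 in the vector library, against 13.1 and 12.6 for TYK2.

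Of the 4 transcription factors 3 had higher values in the PKP2 library, where 49.7% of all expressed genes did. All 3 had an interval above 1, where the share over all expressed genes was 16.3%. With a trend on transcript length and GC content removed, as described further on, 3 of the 4 were still higher. The median difference of the 4 was then 0.24 instead of 0.32. IRF1 (chromosome 5, 132481609 to 132490798), which can switch on interferon and its targets, had 533.6 estimated counts in the PKP2 library and 425.26 in the vector library, a ratio of 1.27 (1.12 to 1.45). Its counts were fractional, and an annotated protein-coding gene covers it on the opposite strand. IRF7 (chromosome 11, 612553 to 615999), the factor that amplifies interferon production, had 58 counts or 3.45 CPM in the PKP2 library and 37 counts or 2.18 CPM in the vector library, a ratio of 1.59 (1.03 to 2.46). IRF9 (chromosome 14, 24161053 to 24166565), the DNA-binding part of the STAT2 complex, had 189 counts or 11.2 CPM in the PKP2 library and 152 counts or 8.94 CPM in the vector library, a ratio of 1.26 (1.01 to 1.57). The lower bounds for IRF7 and IRF9 lie close to 1, and another protein-coding gene on the same strand covers IRF9. STAT2 (chromosome 12, 56341597 to 56360155) had 18.0 CPM in the PKP2 library and 18.4 CPM in the vector library, a ratio of 0.979 (0.833 to 1.15). Summed, the 4 factors gave 64.4 CPM in the PKP2 library and 54.5 CPM in the vector library, whereas the receptor pair gave 84.3 and 95.2 CPM and the kinase pair 311.6 and 336.6 CPM. The length and GC trend was not removed from these sums.

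The ISG15 system held the member with the largest difference, at a low count. ISG15 (chromosome 1, 1001138 to 1014540), whose upstream motif pair is shown above, had 59 counts or 3.51 CPM in the PKP2 library and 36 counts or 2.12 CPM in the vector library, a ratio of 1.66 (1.08 to 2.58). UBE2L6, the E2 enzyme that carries ISG15, had 25.5 CPM in the PKP2 library and 21.2 CPM in the vector library, a ratio of 1.21 (1.05 to 1.39). HERC5, the main human ligase for ISG15, had 7.26 CPM in the PKP2 library and 5.82 CPM in the vector library, with an interval of 0.948 to 1.64. The protease USP18, which removes ISG15 and holds back receptor signalling, had 17.3 against 15.4 CPM, and its interval of 0.947 to 1.33 held 1 as well. The related HERC6 had 9.88 against 10.5 CPM, with an interval of 0.759 to 1.17. TRIM25 (chromosome 17, 56836387 to 56914080), a ubiquitin ligase that acts on the RNA sensor RIGI, went the other way, with 130.1 CPM in the PKP2 library and 149.5 CPM in the vector library, a ratio of 0.870 (0.821 to 0.921). DGKE overlaps TRIM25 on the opposite strand and the protein-coding C17orf67 overlaps it by 2387 bases on the same strand, so its count is uncertain. Of the 6 genes, 4 were higher and 2 lower, where the shares over all expressed genes were 49.7% and 50.3%. The interval lay above 1 for 2 and below 1 for 1, where the shares were 16.3% and 19.8%. With a trend on transcript length and GC content removed, as described further on, 4 were higher and 2 lower. The median difference was then 0.08 instead of 0.21.

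All 4 genes of RNA sensing and editing were lower in the PKP2 library, 2 of them with an interval below 1, where the shares over all expressed genes were 50.3% and 19.8%. With a trend on transcript length and GC content removed, as described further on, 3 of the 4 were higher and 1 lower, and the median difference was 0.03 instead of -0.11. ADAR (chromosome 1, 154582057 to 154628013), which edits adenosine to inosine in double-stranded RNA, was the most abundant member by CPM, with 273.9 CPM in the PKP2 library and 313.0 CPM in the vector library, a ratio of 0.875 (0.841 to 0.910). Its counts were fractional. EIF2AK2 (chromosome 2, 37099210 to 37157065), the RNA-activated kinase PKR, had 103.8 CPM in the PKP2 library and 115.3 CPM in the vector library, a ratio of 0.900 (0.844 to 0.961). The RNA helicase gene IFIH1, which encodes the sensor MDA5, had 2.97 against 3.06 CPM (0.646 to 1.46), and the helicase gene DDX60 had 5.77 against 6.06 CPM (0.714 to 1.27), so neither interval left out 1.

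The oligoadenylate synthetases, which make the messenger that switches on RNase L, differed more from each other than between the libraries. OAS3 (chromosome 12, 112938352 to 112973249) had 154.3 CPM in the PKP2 library and 164.9 CPM in the vector library, a ratio of 0.936 (0.887 to 0.988). OAS1 had 34.6 CPM in the PKP2 library and 34.7 CPM in the vector library, a ratio of 0.997 (0.888 to 1.12). Per kilobase OAS3 had 23.0 CPM in the PKP2 library and 24.5 in the vector library, OAS1 had 14.3 in each, and OAS2, which lies 5145 bases beyond OAS3 in the same cluster, had 0.0628 and 0.0870. An antisense transcript is annotated across OAS1, OAS2 and OAS3. OASL, a synthetase-like protein without that activity, had 21 against 18 counts (0.599 to 2.35). ISG20, an RNA exonuclease, had 95 counts or 5.65 CPM in the PKP2 library and 71 counts or 4.18 CPM in the vector library, a ratio of 1.35 (0.984 to 1.87).

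The 4 IFIT genes had intervals of the ratio that all held 1, as did those of 8183 of all 12820 expressed genes. IFIT1, IFIT2 and IFIT3 had a mean below 5 CPM, where 1765 of 1974 genes had such an interval. IFIT5 was the most abundant, with 21.4 CPM in the PKP2 library and 19.7 CPM in the vector library (0.934 to 1.27). IFIT3 had 4.41 against 4.47 CPM (0.705 to 1.37), IFIT1 had 3.03 against 2.77 CPM (0.724 to 1.67), and IFIT2 had 1.55 against 1.35 CPM (0.627 to 2.10). All 4 lie in 1 cluster on chromosome 10, with gaps of 8099 to 51574 bases, and IFIT1, IFIT2 and IFIT3 lie on the opposite strand to the annotated gene LIPA. Summed, the family gave 30.4 CPM in the PKP2 library and 28.2 CPM in the vector library, a ratio of 1.07 (0.947 to 1.22).

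The IFITM genes encode short membrane proteins that block virus entry, and the counts of IFITM2 and IFITM3 were fractional. IFITM2 (chromosome 11, 307631 to 315272) had 693.75 estimated counts or 41.3 CPM in the PKP2 library and 585.62 or 34.5 CPM in the vector library, a difference of 0.25 on the log2 scale, with an interval of the ratio of 1.07 to 1.34. IFITM3 (chromosome 11, 319669 to 327537) had 99.25 estimated counts or 5.90 CPM in the PKP2 library and 73.38 or 4.32 CPM in the vector library, a ratio of 1.37 (1.00 to 1.88), with a lower bound just above 1. The family members are near-identical copies whose reads a counter may divide between them, and the annotation of IFITM2 runs over IFITM1, so the split between the 3 genes is uncertain. Per kilobase IFITM2 had 46.3 CPM in the PKP2 library and 38.6 in the vector library, among the highest of all members, whereas IFITM3 had 7.31 and 5.34.

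MX1 (chromosome 21, 41420304 to 41459214), a dynamin-like GTPase against influenza and other viruses, had 54.82 estimated counts or 3.26 CPM in the PKP2 library and 36.01 or 2.12 CPM in the vector library. Its ratio was 1.54 with an interval of 0.997 to 2.42, which holds 1, and its counts were fractional. Its neighbour MX2, 10913 bases away, had 1 count in each library.

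PARP9 and DTX3L, which form a complex that marks histones and viral proteins, lie on opposite strands and overlap by 340 bases. PARP9 had 20.8 CPM in the PKP2 library and 18.8 CPM in the vector library, a ratio of 1.11 (0.948 to 1.29), while DTX3L had 33.3 and 37.1 CPM, a ratio of 0.897 (0.799 to 1.01). PARP14, an ADP-ribosyltransferase gene 105414 bases beyond DTX3L, had 50.7 against 54.3 CPM (0.850 to 1.03), and PARP12, whose product restricts several RNA viruses, had 21.5 against 20.2 CPM (0.915 to 1.24). All of these 4 intervals held 1, as did those of 8183 of all 12820 expressed genes.

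Among the remaining effectors TRIM21 (chromosome 11, 4384897 to 4393696), an antibody receptor and ubiquitin ligase inside the cell, had 363 counts or 21.6 CPM in the PKP2 library and 293 counts or 17.2 CPM in the vector library, a difference of 0.31 on the log2 scale, with an interval of the ratio of 1.07 to 1.47. It was the 1 gene of the group whose interval left out 1. IFI44, a gene of the IFI44 family in a pair with IFI44L on chromosome 1, had 23 counts or 1.37 CPM in the PKP2 library and 12 counts or 0.706 CPM in the vector library. Its ratio of 1.94 was the highest of the expressed members, but its interval ran from 0.926 to 4.27. SAMD9L (chromosome 7, 93130055 to 93148369), a restriction factor for poxviruses, had 21 counts in the PKP2 library and 33 counts in the vector library, a ratio of 0.643 (0.354 to 1.15). It was the 1 member lower by 0.32 or more on the log2 scale, and its neighbour SAMD9 had 9.22 against 9.65 CPM, with an interval that held 1. IFI6, a mitochondrial protein gene, had 56 counts in each library, IFI35 had 17.6 CPM in the PKP2 library and 15.5 CPM in the vector library (0.954 to 1.34), and the nuclear body gene SP110 had 7.62 and 8.41 CPM (0.707 to 1.16).

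**Figure D2:**
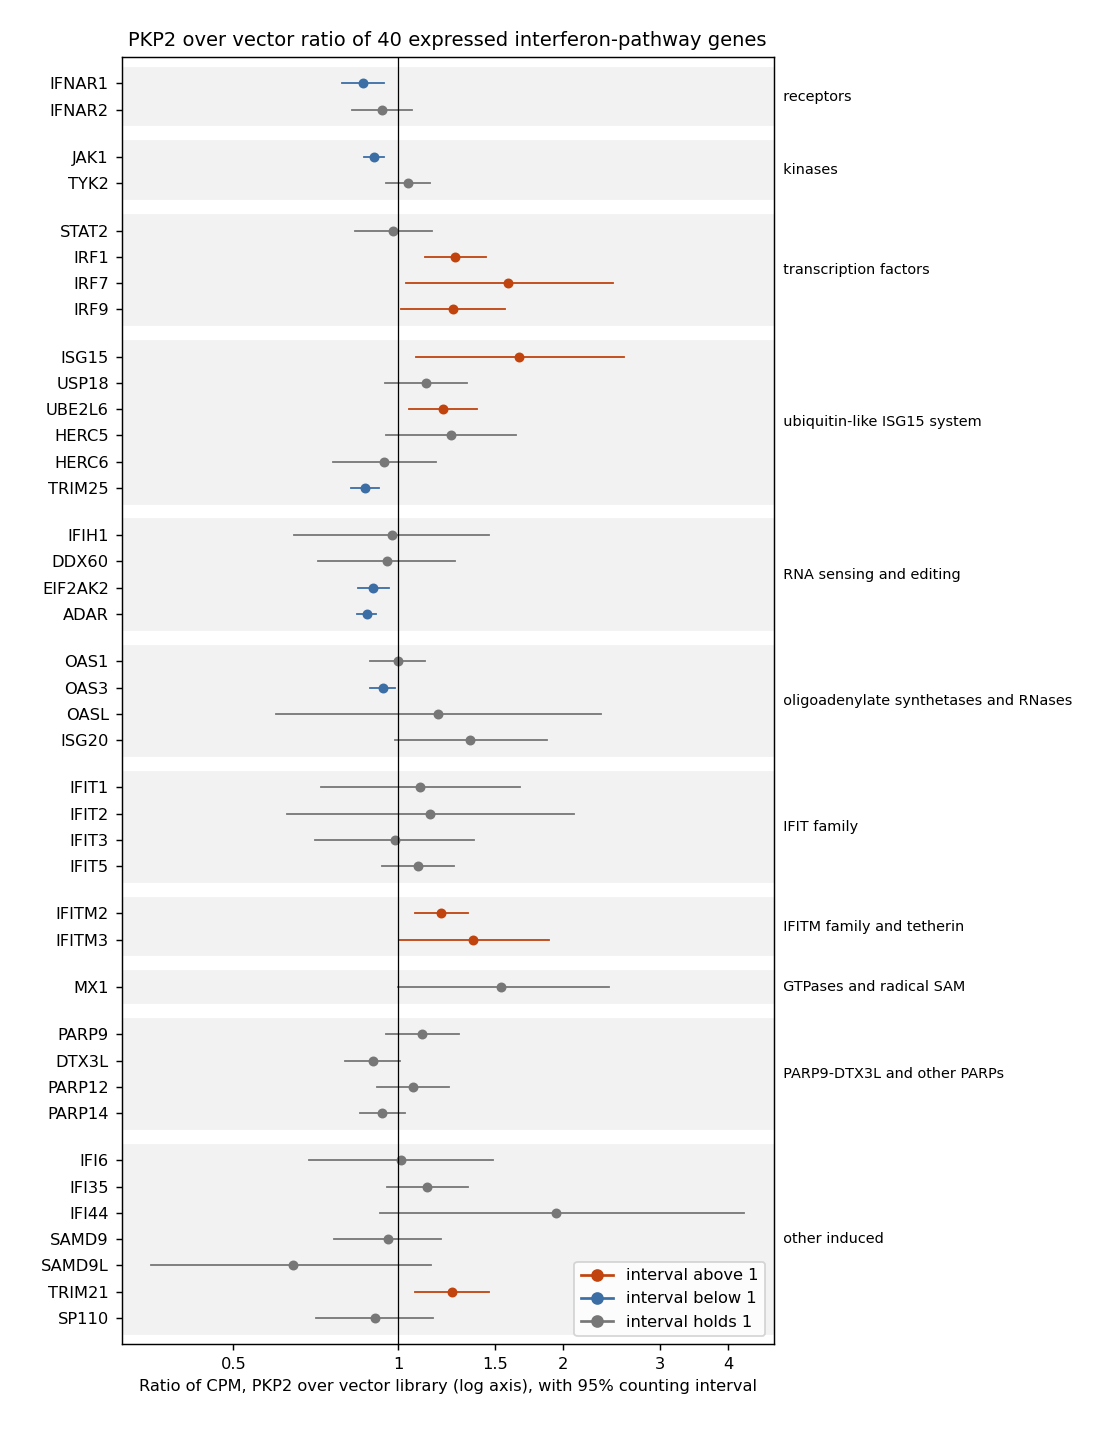
Ratio of CPM, PKP2 over vector library (log axis), for the 40 expressed members, grouped by role; lines are 95% Clopper-Pearson intervals that cover counting error only. Intervals lie above 1 for IRF1, IRF7, IRF9, ISG15, UBE2L6, IFITM2, IFITM3 and TRIM21 and below 1 for IFNAR1, JAK1, TRIM25, EIF2AK2, ADAR and OAS3, and the other 26 hold 1.

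The members with intervals above and below 1 differed in transcript length. Over all expressed genes the difference between the libraries ran with the length of the longest transcript in GENCODE release 29 and with its GC content. Of the 14 expressed members with transcripts of up to 2822 nucleotides, 11 were higher in the PKP2 library and 7 had an interval above 1, with a median difference of 0.26. Of all 4225 expressed genes in this length class, 3117 were higher and 1293 had an interval above 1, with a median of 0.10. Of the 14 members with transcripts over 4773 nucleotides, 11 were lower and 6 had an interval below 1, with a median of -0.12, and of the 4223 genes of that class 3078 were lower and 1670 had an interval below 1, with a median of -0.12. Of the 12 members between these bounds, 8 were higher and every interval held 1, with a median of 0.09. Of the 4223 genes between them, 2041 were higher and 3003 had an interval that held 1, with a median of -0.01. All 6 members with an interval below 1 were thus in the class of long transcripts, and 7 of the 8 above 1 in the class of short ones, IRF1 being the exception. The longest transcript need not be the one expressed, so the class of a gene depends on that choice. Across the 40 members Spearman's rho of the difference with length was -0.67, and across all expressed genes with a length it was -0.46. These are descriptions, since genes of 1 pair of libraries share depth, length and base composition and are not independent. The part of length and GC content in the members' differences was not tested with other libraries.

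**Figure D3:**
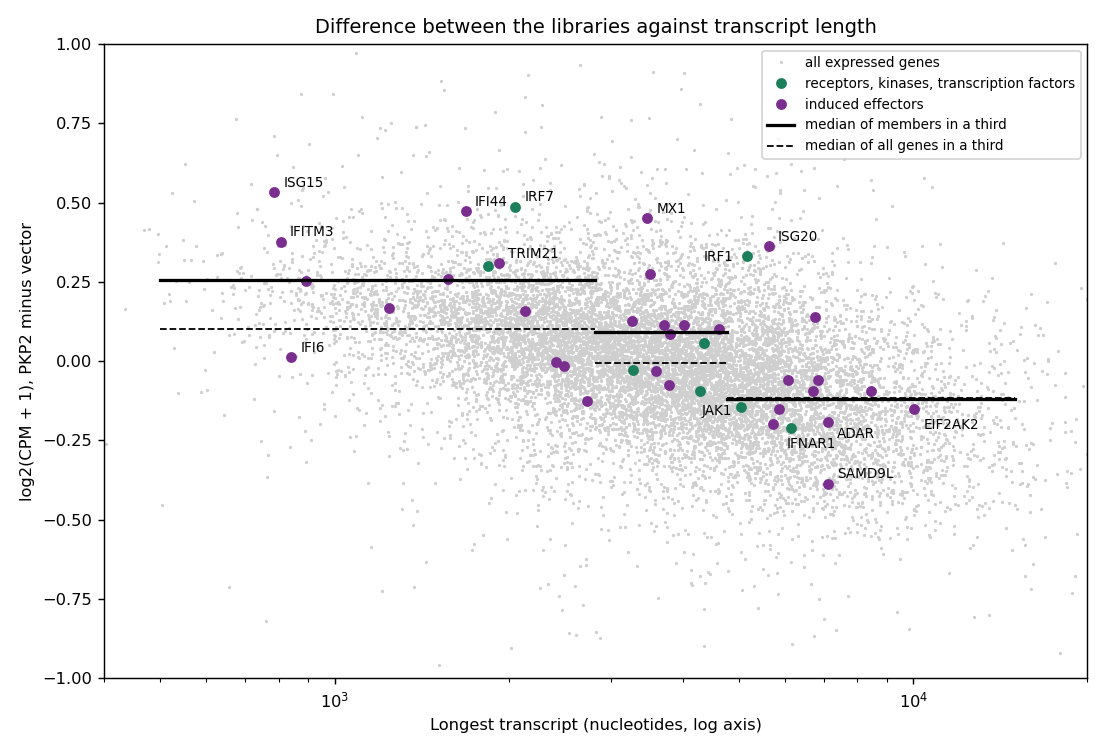
Difference in log2(CPM + 1), PKP2 minus vector library, against the longest transcript (nucleotides, log axis) for all expressed genes with a length (grey; 48 of 12671 lie outside the axes) and for the 40 expressed members. Solid lines are the medians of the members and dashed lines those of all genes in 3 equal length classes; both step down with length, from 0.26 and 0.10 in the shortest class to -0.12 and -0.12 in the longest.

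With a smooth trend on length and GC content removed from all expressed genes, the differences of the abundant members shrank toward 0. ADAR lay at -0.09 on the log2 scale instead of -0.19, JAK1 at -0.09 instead of -0.15, IFNAR1 at -0.09 instead of -0.21 and OAS3 at -0.04 instead of -0.09. In all 7 members changed sign. EIF2AK2 lay at 0.06 instead of -0.15, PARP14 at 0.07 instead of -0.10, SAMD9 at 0.12 instead of -0.06, DDX60 at 0.08 instead of -0.06 and IFIH1 at 0.00 instead of -0.03. In the other direction IFI35 lay at -0.03 instead of 0.17 and IFI6 at -0.22 instead of 0.01. TRIM25 kept its sign and lay at -0.15 instead of -0.20. Among the higher members the short transcripts moved most. ISG15 lay at 0.26 instead of 0.53, IFITM3 at 0.13 instead of 0.38, IFITM2 at 0.03 instead of 0.25, UBE2L6 at 0.09 instead of 0.26 and IRF9 at 0.16 instead of 0.30. IRF1 at 0.35 instead of 0.33, MX1 at 0.42 instead of 0.45, IFI44 at 0.44 instead of 0.47 and ISG20 at 0.40 instead of 0.36 stayed near their values, whereas IRF7 lay at 0.31 instead of 0.49 and TRIM21 at 0.21 instead of 0.31. The lengths used for IRF1 and ISG20 were 5153 and 5634 nucleotides, those of their longest transcripts. Whether these are the transcripts expressed was not tested. The median over the 40 members was then 0.06, with 25 higher and 15 lower, against -0.01 over all expressed genes with a length, of which 5946 were higher and 6725 lower.

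**Figure D4:**
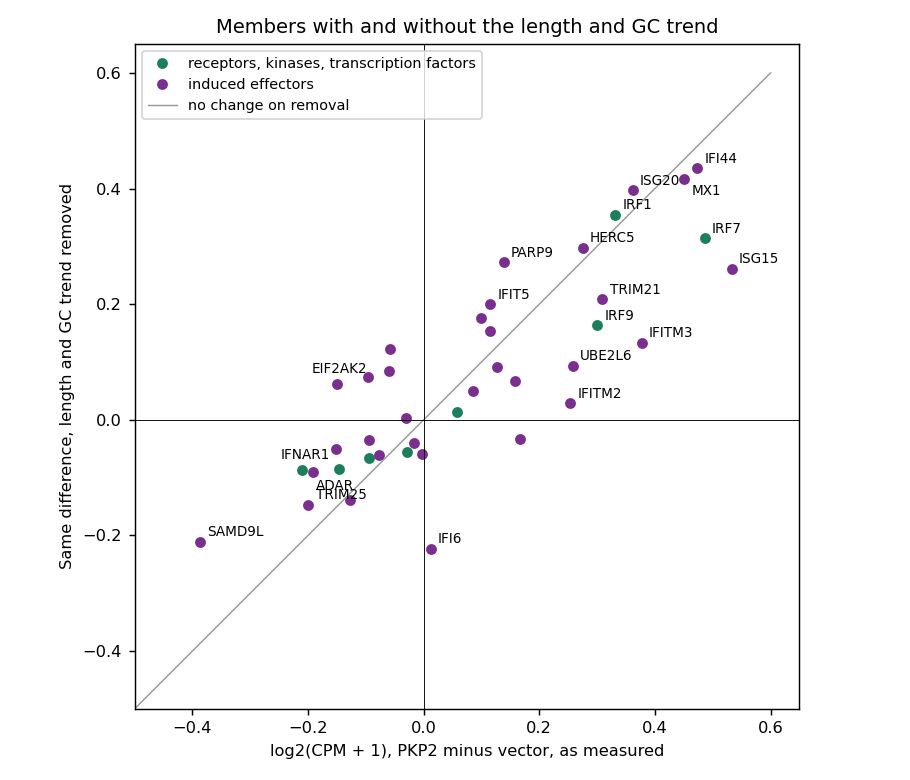
Difference in log2(CPM + 1), PKP2 minus vector library, of each of the 40 expressed members as measured (horizontal) and with the length and GC trend of all expressed genes removed (vertical). IRF1, ISG20, HERC5, MX1 and IFI44 lie near the diagonal, ISG15, IFITM3 and IFITM2 lie below it, and EIF2AK2, PARP14, SAMD9, DDX60, IFIH1, IFI35 and IFI6 change sign.

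Low members were spread more widely than high ones, from -0.39 to 0.53 below a mean of 5 CPM and from -0.21 to 0.38 above it. Of the 28 members above it, 13 were higher and 15 lower in the PKP2 library, with a median difference of -0.02, against -0.01 for the 10846 genes of that level. Of those 10846 genes 5295 were higher and 5551 lower. Of the 12 members below 5 CPM, 9 were higher and 3 lower, with a median of 0.12, against 0.04 for the 1974 genes of that level. Of those 1974 genes 1077 were higher and 897 lower. Only IRF7 and ISG15 of those 12 had an interval that left out 1, and of the 1974 genes 118 had an interval above 1 and 91 below 1. Of the 7 members higher by 0.32 or more, IRF7, ISG15, IFI44, MX1 and ISG20 had a mean below 5 CPM, and IRF1 and IFITM3 did not. Among all genes, 309 of the 1974 below 5 CPM and 353 of the 10846 above it were higher by that much.

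Members with and without the response element core overlapped in their differences. Of all expressed genes 49.7% were higher in the PKP2 library and 50.3% lower. The 19 expressed members with a match in their window ranged from -0.15 to 0.53, with 11 higher, 8 lower and a median of 0.09. The 15 expressed members whose window held none ranged from -0.39 to 0.33, with 6 higher, 9 lower and a median of -0.03. Their median longest transcripts were 3796 and 4347 nucleotides, and after removal of the trend the medians were 0.12 and -0.06. Of the members with the largest differences ISG15, IFI44, MX1, IFITM3, ISG20 and TRIM21 held the core and SAMD9L, IRF1 and IRF9 did not. The part of transcript length in this split was not tested.

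The interferon genes themselves were scarce. Of 10 ligand genes IFNE, IFNA1 and IFNK were listed. IFNE, an epithelial interferon, had 48 counts or 2.86 CPM in the PKP2 library and 45 counts or 2.65 CPM in the vector library (0.703 to 1.66), IFNA1 had 9 and 5 counts, and IFNK had 0 and 1.

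Other genes of the pathway, from lists chosen with earlier results of these data known, likewise held no member at least 1.5-fold apart. All 4 other receptor genes had higher values in the PKP2 library, where 49.7% of all expressed genes did, with a median difference of 0.21. With the trend removed 3 were higher and 1, IFNGR2, lay at -0.06 instead of 0.05. IFNGR1, the ligand-binding chain of the gamma-interferon receptor, had 76.5 CPM in the PKP2 library and 63.7 CPM in the vector library, with an interval of the ratio of 1.11 to 1.30, and was the 1 of them with an interval above 1. IL10RB, a chain of the lambda-interferon receptor, had 29.1 against 26.0 CPM (0.982 to 1.28), and IFNGR2 had 51.9 against 50.2 CPM (0.941 to 1.14). Of 11 sensing genes 9 were expressed, 5 higher and 4 lower, where 49.7% of all expressed genes were higher, with a median of 0.01. With the trend removed 6 were higher and 3 lower, with a median of 0.01. The transcription factor gene IRF3 (fractional counts) had 79.0 against 66.5 CPM, a ratio of 1.19 whose interval lay above 1, the adaptor gene MAVS (fractional count) had 181.1 against 200.4 CPM (0.860 to 0.949), and the DNA sensor gene CGAS had 12.3 against 13.8 CPM (0.735 to 1.08). After removal of the trend IRF3 lay at 0.15 instead of 0.24 and MAVS at -0.01 instead of -0.15.

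Of 7 negative regulators 6 were expressed, 5 higher and 1 lower, where 49.7% of all expressed genes were higher, with a median of 0.14. With the trend removed 4 were higher and 2 lower, with a median of 0.13. The phosphatase gene PTPN6 had 26.8 CPM in the PKP2 library and 22.2 CPM in the vector library (1.05 to 1.39), and the JAK inhibitor gene SOCS3 had 31.2 and 26.3 CPM (1.04 to 1.35). PIAS1, which encodes an inhibitor of STAT proteins and had fractional counts, had 50.4 against 59.7 CPM (0.769 to 0.925). After removal of the trend PTPN6 lay at 0.14 instead of 0.26, SOCS3 at 0.14 instead of 0.24 and PIAS1 at -0.07 instead of -0.24. Of 10 targets of gamma-interferon 4 were expressed, 2 higher and 2 lower, where 49.7% of all expressed genes were higher. With the trend removed 2 were higher and 2 lower. The guanylate-binding protein gene GBP2 had 153 counts or 9.10 CPM in the PKP2 library and 107 counts or 6.30 CPM in the vector library, a ratio of 1.45 (1.12 to 1.87), and its difference was 0.50 after removal of the trend instead of 0.47. Its relative GBP3 (fractional count) had 14.4 against 15.8 CPM (0.761 to 1.09), and WARS1 had 163.0 against 168.3 CPM (0.918 to 1.02). The chemokine genes CXCL10 and CXCL11 had 2 and 0 counts in the PKP2 library and 0 and 1 in the vector library.

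Of 12 further induced genes 8 were expressed, 5 higher and 3 lower, where 49.7% of all expressed genes were higher, with a median of 0.07. With the trend removed 6 were higher and 2 lower, with a median of 0.07. The secreted glycoprotein gene LGALS3BP had 372.5 CPM in the PKP2 library and 306.7 CPM in the vector library, a ratio of 1.21 (1.17 to 1.26). ZC3HAV1, which encodes the zinc-finger antiviral protein, had 88.3 against 110.0 CPM, a ratio of 0.803 (0.750 to 0.860), and TRIM14 (fractional counts) had 75.6 against 85.8 CPM (0.816 to 0.950). After removal of the trend these 3 lay at 0.16, -0.18 and -0.18 instead of 0.28, -0.31 and -0.18.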

How the data were processed

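Trizol-extracted total RNA went into Illumina TruSeq libraries, per the labels' protocols. The deposited tables hold an estimated count for each gene, not normalized, with fractional values for 2491 genes in the PKP2 library and 2403 in the vector library. Per the submitters' processing notes, HISAT2 2.0.4, Bowtie2 and RSEM 1.2.12 were used with GRCh38.p12. Annotation, filters and strand setting: not given in the sources used here. Of the 47 members 20 overlap a gene on the opposite strand and 24 overlap any gene, and those counts are uncertain, as are those of the 10 with fractional values.

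From the counts, CPM and log2(CPM + 1), PKP2 minus vector, were computed with Python 3.11.15. Ratios are of CPM, and their exact 95% intervals (scipy 1.17.1) use rounded counts and cover counting error only. Symbols came from RefSeq (16183 of 16399 IDs matched), and positions, transcript lengths and GC content from GENCODE release 29, for 98.8% of expressed genes. CPM per kilobase, the length classes and the trend all use the longest transcript, which need not be the one expressed. The trend on length and GC is an additive lowess (statsmodels 0.14.6, span 0.3, 5 rounds). Both calculations were tested on simulated data.

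The members, lists, named genes and alternatives were chosen with earlier results of these data known. All members were named. The 10 with the largest difference, the 5 with the highest level and the signalling genes were given in most detail, and from each other list at most 3 genes averaging at least 5 CPM. IFNE, IFNA1, IFNK, CXCL10 and CXCL11 were added after their values were seen. Alternatives were pseudocounts of 0.1 and 5, other filters on level, other scalings, the trend removed, and fractional counts left out.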

Additional observations from a re-analysis of the deposited data

How the results depend on the processing

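The differences of the 40 expressed members stayed within their counting error under pseudocounts of 0.1 and 5 CPM and under scaling by the median or trimmed mean of the log ratios. With the length and GC trend removed 35 did so, ADAR, JAK1, IFITM2 and PARP14 moved further, and EIF2AK2 lay at 0.061 instead of -0.15. Of the 7 that changed sign EIF2AK2 was the 1 whose interval of the ratio left out 1. No member was 1.5-fold apart except with a pseudocount of 0.1 CPM, where 4 were higher and 1 lower, against 1.94% and 1.61% of all expressed genes. The count higher by 0.32 or more was 7, but 0 with a pseudocount of 5 CPM, 2 at a mean of 5 CPM or more, 4 with the trend removed and 4 of 30 without fractional counts. Over all genes these 4 settings gave shares of 1.4%, 3.3%, 3.9% and 5.0%, against 5.16% in the main setting. The 1 lower member gave a count of 0 with a pseudocount of 5 CPM, at a mean of 5 CPM or more and with the trend removed. The shares over all genes in these 3 settings were 3.64%, 6.23% and 3.98%, against 6.98% in the main setting. The median difference of all members was 0.07, but 0.012 with no filter (47 members) and -0.016 at a mean of 5 CPM or more, where the sign turned. For the effectors it was 0.09, but 0.012 with no filter and -0.0036 at a mean of 5 CPM or more. For the signalling genes it was 0.01, and -0.095 without fractional counts. The PKP2 difference was 3.25, and 3.08 with a pseudocount of 5 CPM. No paired analysis was possible because each group held 1 library, and no library could be left out. The cause of these shifts was not tested. At the depth of these libraries the intervals of IFI44 and OASL, both near 1 CPM, held both 1 and 1.5. So did those of HERC5, ISG20, IFIT1, IFIT2 and MX1.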
